A study of Rattus norvegicus with 70 samples.

Results

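The 8 genes described here mark the hepatocyte or its fetal state: Alb, Afp, Ttr, Otc, and the transcription factors Foxa1, Foxa2, Hnf4a and Cebpa. They were taken by gene symbol, and each had 1 promoter region, so that 8 of the 17174 deposited regions were members. All 8 passed the filter on low values at both times. DNA methylation was read in rat liver by enriching methylated fragments with a methyl-CpG-binding protein (MBD sequencing) and counting them in a window of 5625 bp around each transcript start, of which 4500 bp lay upstream. The rats were outbred Crj:CD(SD)IGS animals and received either an initiating chemical or only its vehicle, 0.5% methylcellulose, for at most 2 weeks, then nothing for 2 weeks, and then a promotion period on drinking water.

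Both control groups had vehicle alone before promotion. The water control then drank plain water, and the phenobarbital control drank 500 ppm phenobarbital, a liver tumour promoter that activates the constitutive androstane receptor. The other 5 conditions all drank phenobarbital too. They had first been given diethylnitrosamine (DEN, a carcinogen that alkylates DNA) at 3 mg/kg or 30 mg/kg, or 1 of 3 hepatotoxic compounds: acetaminophen (1000 mg/kg), methapyrilene (100 mg/kg) or thioacetamide (45 mg/kg). The higher DEN dose was shortened to 1 week for loss of body weight, so it differed from the others in duration as well as dose. Liver was sampled first at a partial hepatectomy, 1 week into promotion, and again at termination after 6 weeks, so the second sample came from the liver left by that operation in every group, controls included. Each of the 14 groups had 5 libraries, 70 in all; per the labels, the DNA of a group came from 5 rat livers, and the sources do not tie livers across the 2 times.

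Hepatocytes keep their identity through a network of transcription factors that bind each other's genes. Foxa1 and Foxa2 are forkhead pioneer factors that open liver enhancers early in development, Hnf4a is a nuclear receptor needed for most hepatocyte functions, and Cebpa is a basic leucine zipper factor that holds hepatocytes in a quiescent, differentiated state. Their targets include Alb, the main plasma protein of the adult, Ttr, the carrier of thyroxine and retinol-binding protein, and Otc, an enzyme of the urea cycle. Afp, the albumin of the fetus, lies beside Alb in the same gene cluster, is silenced after birth and can return in regenerating liver and in liver tumours. Methylation of CpG sites at such promoters is known to differ between cells that use them and cells that do not.

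The number of CpG sites sets how many fragments an MBD protein can hold, so 4 promoters are printed to show how far the members differ in this. Each line gives the 250 bases before the transcript start, from RefSeq on the build GRCr8, 5′ to 3′ on the gene's strand, with CG in capitals. Alb (chr14:17906980-17907229, minus strand) and Afp (chr14:17875646-17875895, minus strand) are the neighbours with the largest treatment and time differences below, Otc (chrX:15202474-15202723, minus strand) had the lowest signal, and Cebpa (chr1:96896334-96896583, plus strand) is the CpG-dense member.
Alb: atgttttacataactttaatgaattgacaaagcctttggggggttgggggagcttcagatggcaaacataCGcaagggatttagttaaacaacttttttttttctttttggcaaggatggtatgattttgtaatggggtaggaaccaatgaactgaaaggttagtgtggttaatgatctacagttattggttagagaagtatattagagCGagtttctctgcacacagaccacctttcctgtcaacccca
Afp: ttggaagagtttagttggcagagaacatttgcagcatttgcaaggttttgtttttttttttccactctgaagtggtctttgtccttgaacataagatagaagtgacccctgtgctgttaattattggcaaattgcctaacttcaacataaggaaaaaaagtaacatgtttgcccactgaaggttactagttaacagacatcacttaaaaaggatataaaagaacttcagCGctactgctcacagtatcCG
Otc: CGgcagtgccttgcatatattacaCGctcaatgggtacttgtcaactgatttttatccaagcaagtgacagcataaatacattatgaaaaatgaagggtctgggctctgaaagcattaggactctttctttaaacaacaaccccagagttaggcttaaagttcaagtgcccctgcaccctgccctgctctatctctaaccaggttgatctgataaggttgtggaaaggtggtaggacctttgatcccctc
Cebpa: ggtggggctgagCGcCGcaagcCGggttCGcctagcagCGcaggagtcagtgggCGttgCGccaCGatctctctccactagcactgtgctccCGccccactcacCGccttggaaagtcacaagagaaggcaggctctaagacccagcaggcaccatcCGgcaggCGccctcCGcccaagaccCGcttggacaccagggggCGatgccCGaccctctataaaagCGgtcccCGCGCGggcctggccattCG

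Alb, Afp and Otc each held 2 CG in these 250 bases and Cebpa held 21. RefSeq promoters of 300 bases (250 before and 50 after the start) were matched for 7 of the 8 genes, with 2 for Hnf4a. In that longer window Alb and Otc held 2 CG, Afp and Ttr 3, the 2 Hnf4a promoters 6 and 5, Foxa2 8 and Cebpa 28, against a median of 7 over the table's 33469 promoters. Of the letters searched on both strands, TATAAA was found in Afp, Cebpa and Foxa2 (14.2% of all promoters hold it), and CCAAT in Alb, Afp, Ttr, Foxa2 and both Hnf4a promoters (37.5% of all). The TATAAA of Afp and that of Cebpa began 37 and 35 bases before the start. The forkhead letters TGTTTAC (3.78% of all promoters), the C/EBP palindrome TTGCGCAA (0.170%) and the strict Hnf1 palindrome (0.00299%) were not found in these windows. The windows overlap the measured regions only in part, and the deposited coordinates belong to another build, which no source used here names.

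Values below are the deposited signal, which is the read number of a region scaled to 50 M reads per library. All regions have the same length, so levels can be compared between genes. The signal rises with both the number of CpG sites and the share of them that are methylated, so a level is not a degree of methylation. Liver is a mixture, and a change in the share of cells of a type cannot be told apart from a change of methylation within cells. Recovered reads over the regions came to 0.933 M to 1.80 M per library, with 41 to 69 reads in the median region. In 9 libraries under 1% of the regions (at most 0.932%) were without a read, against at least 1.60% in the other 61; these are called evenly covered, 8 of the 9 belong to the third of 4 blocks of library numbers, and they sit in 8 of the 14 groups. The fourth block, 10 libraries that are each replicate 5 of an initiator group, carried scaling totals identical to those of 10 libraries of the first block and had a median of 1.58 M region reads against 1.34 M elsewhere, so the signal of these libraries may be off by a constant factor.

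Foxa1 had the most MBD signal of the 8 genes, with a median of 261 over the 70 libraries (lowest 120, highest 388), above 95.7% of all regions, and it was the highest member in 70 of 70 libraries. Hnf4a followed at 125 (66.8 to 184) and Afp at 102 (56.9 to 159). Ttr had 76.1 (27 to 135), Cebpa 63.8 (36 to 119), Foxa2 56.2 (36.3 to 91.6) and Alb 55 (21.6 to 94.8), near the median of 52.5 over all regions. Otc, on chromosome X, had the least at 20.8 (7.41 to 35.7) and was the lowest member in 69 of 70 libraries. The order was therefore firm at both ends and loose in the middle: Hnf4a lay above Afp in 57 of 70 libraries and Afp above Ttr in 61, but Ttr exceeded Cebpa in 48, Cebpa exceeded Foxa2 in 46 and Foxa2 exceeded Alb in only 33. In the middle the SD of the log2 ratio of neighbours (0.46 to 0.55) was larger than its median (-0.04 to 0.25).

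**Figure D1:**
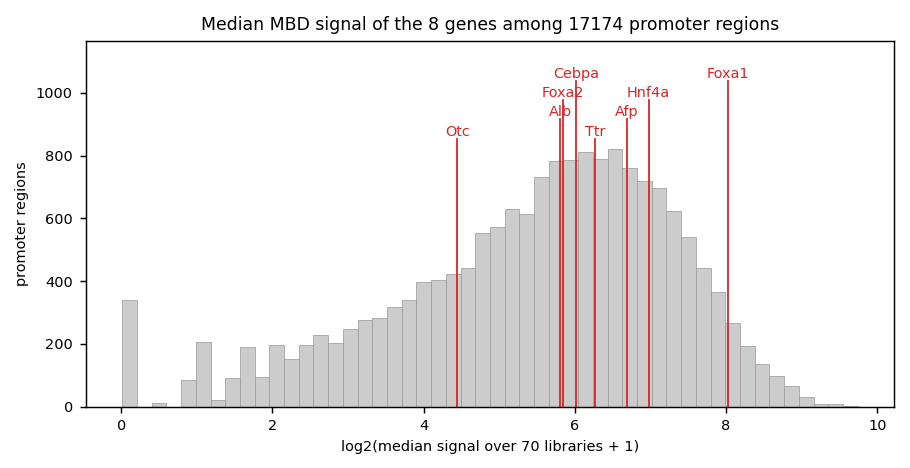
Number of promoter regions (vertical axis) by log2 of their median signal over 70 libraries plus 1 (horizontal axis), for 17174 regions, with red lines at the 8 genes. Foxa1 (261) lies in the upper tail, Otc (20.8) in the lower part, above 26.7% of all regions, and Alb (55), Foxa2 (56.2) and Cebpa (63.8) near the middle.

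The CpG number of the promoter did not order the members, since Cebpa with 28 CG had a signal of 63.8 and Ttr with 3 had 76.1. Over all genes with 1 region and 1 RefSeq promoter, the median signal was 44.7 with 0 to 4 CG (1691 genes), 97.1 with 5 to 9 (1333 genes), 57.5 with 10 to 19 (2335 genes) and 51.5 with 20 or more (4256 genes). Alb, Afp and Ttr lay above the median of their class and Otc below it, all 4 within its interquartile range (10.5 to 107). Foxa2, with 8 CG and a signal of 56.2, lay below the median of its class and within its interquartile range (46.3 to 171). Cebpa was also within the interquartile range of its class (22.1 to 97.4).

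Alb and Afp are neighbours on chromosome 14, their windows (19141089 to 19146714 and 19109599 to 19115224 in the files' coordinates, minus strand) 25.9 kb apart. Afm, the afamin gene of the same albumin family, lies 22.1 kb beyond Afp with a median signal of 265. The signal thus stood at 55 for Alb, 102 for Afp and 265 for Afm in adult liver. Ankrd17, the next gene on the other side of Alb, had 1.15. The other windows were Cebpa on chromosome 1 (87621611 to 87627236), Foxa1 on 6 (78008051 to 78013676), Foxa2 and Hnf4a on 3 (136742079 to 136747704 and 154455363 to 154460988), Otc on X (24684216 to 24689841) and Ttr on 18 (12401969 to 12407594). No member window overlapped another region of the table.

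Replicates of a group varied least for Afp, whose within-group SD was 0.30 on the log2 scale, with a smaller spread in only 12.7% of tested regions, and most for Otc at 0.49; the median over tested regions was 0.38. Counting alone would give 0.09 for Foxa1, 0.14 for Afp, 0.19 for Alb and 0.32 for Otc. The spread of Foxa1 (0.38) was thus about 4 times its counting error. It moved with how evenly a library covered the regions: Foxa1 was at 120 to 217 (median 167) in the 9 evenly covered libraries and at 163 to 388 (median 266) in the other 61, and each of the 9 was below every library of its group that was not evenly covered. Hnf4a behaved in the same direction, with 66.8 to 131 against 88.9 to 184 (5 of 9 below every library of their group that was not evenly covered). Foxa2 had a median of 65.2 in the evenly covered libraries and 52.6 in the others, and 5 of 9 were above every library of their group that was not evenly covered. The treatment differences were also fitted without the 9 libraries. Of the 112 member differences 12 then had an unadjusted limma p under 0.05, against 7 with all libraries. Values of treatment differences from that fit are given below only for Ttr and for Afp under acetaminophen.

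**Figure D2:**
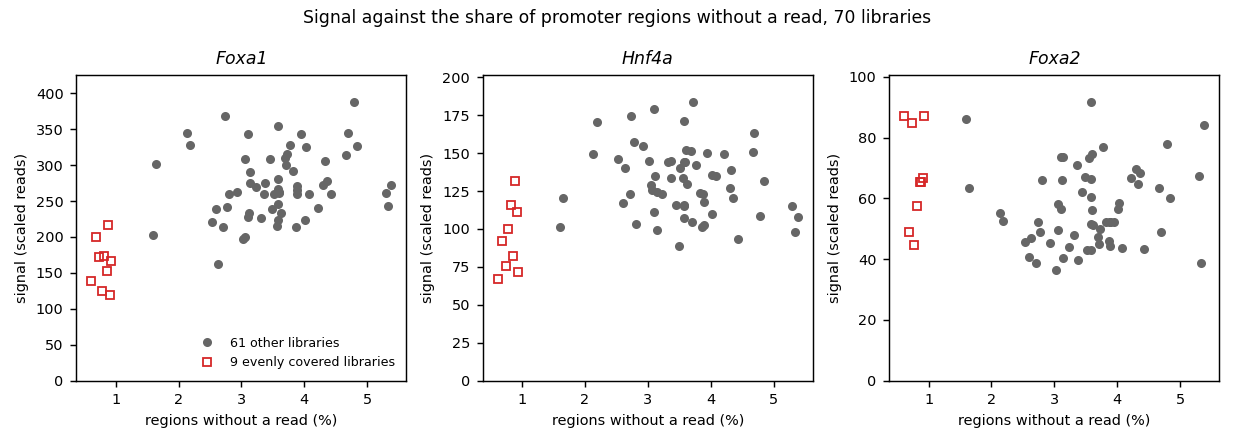
Signal of Foxa1, Hnf4a and Foxa2 (vertical axes, scaled reads) against the percentage of regions without a read (horizontal axes), 1 point per library, open red squares for the 9 evenly covered libraries. The 9 squares lie low for Foxa1 (120 to 217) and Hnf4a (66.8 to 131) and partly high for Foxa2.

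None of the 8 genes passed an adjusted p of 0.05 (limma with Benjamini-Hochberg adjustment over all tested regions) in any of the 14 treatment contrasts, and the background was the same, 0% of 15809 regions at partial hepatectomy and 0% of 16008 at termination in each contrast. The F test over the 7 conditions called 0.00633% of regions at partial hepatectomy and 0% at termination, and no member. Of the 112 differences of a member in a contrast, 7 (6.25%) had an unadjusted p under 0.05, against 4.25% over all regions. Those that did are described next as values that did not pass.

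Phenobarbital against water was the contrast in which Alb differed most. At partial hepatectomy the Alb signal was 26, 21.6, 48.8, 54.7 and 38.5 in the water control and 48.4, 61.1, 67.8, 75.3 and 65.8 in the phenobarbital control. The groups overlapped only through the lowest phenobarbital library, which was under the 2 highest of water, and the phenobarbital value was the higher in 23 of 25 pairs. The means were 37.9 ± 14.2 and 63.7 ± 9.93 (SD, n = 5 each), a log2 difference of 0.80 (SE 0.22, 95% interval 0.36 to 1.25), with an unadjusted limma p of 0.000622 and an adjusted p of 0.578. The two-sided exact permutation p of the same 5 against 5 libraries was 0.0238, the smallest this design allows being 0.00794. An unadjusted p under 0.05 was found in 6.28% of regions in that contrast. Within blocks of library numbers the phenobarbital mean was higher each time, 54.8 against 23.8, 71.5 against 51.7 and 65.8 against 38.5 (2, 2 and 1 libraries per group).

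The water control at partial hepatectomy had the lowest Alb mean of all 14 groups, and was also the lowest group for Afp (80.2 ± 14.1), Cebpa (46.7 ± 12.3) and Otc (15.7 ± 7.44). All 8 members had a higher mean log2 signal under phenobarbital there, with a median difference of 0.14; over all regions 57.5% were higher and the median was 0.06. RNA markers of other liver cell types moved by amounts of the same order in that contrast: 4 of 5 macrophage regions were higher (median 0.22), 3 of 3 endothelial (0.19), 3 of 3 biliary (0.11), 3 of 5 stellate (0.11) and 4 of 9 lymphocyte ones (-0.23). None was called. Their summed signal in water and phenobarbital libraries was 314 to 491 and 412 to 590 for macrophage, 269 to 481 and 428 to 545 for endothelial and 215 to 299 and 244 to 354 for biliary markers. It was 361 to 562 and 473 to 571 for stellate and 344 to 686 and 527 to 672 for lymphocyte markers. The part of other cells in the members' differences was not tested, and no measured marker of these 5 types had a median signal under 26.4. These genes are markers by RNA, and on MBD signal a higher value does not measure a larger share of a cell type. The F test gave Alb an unadjusted p of 0.00698 at partial hepatectomy (adjusted 0.988), where 4.16% of regions fell under 0.05. The 5 initiator groups, which also drank phenobarbital, had Alb means of 58.7 to 66.1 at that time, and their differences from the phenobarbital control lay between -0.14 and 0.03.

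At termination the Alb values of water (44.9, 55, 40.1, 45.1 and 55) lay inside the range of phenobarbital (31.7, 60.6, 63.9, 39.2 and 48.1). The log2 difference was -0.02 (SE 0.25, interval -0.52 to 0.49). The change of the phenobarbital difference from the first time to the second was -0.82 (SE 0.34, unadjusted limma p of 0.0170, adjusted p of 0.717), and the same test was under 0.05 in 6.63% of regions and passed adjustment in 0%. Without water replicate 2 at partial hepatectomy that p was 0.0617, so the difference between the times rests partly on this library; the difference at partial hepatectomy itself kept an unadjusted p of at most 0.00749 whichever library was left out.

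**Figure D3:**
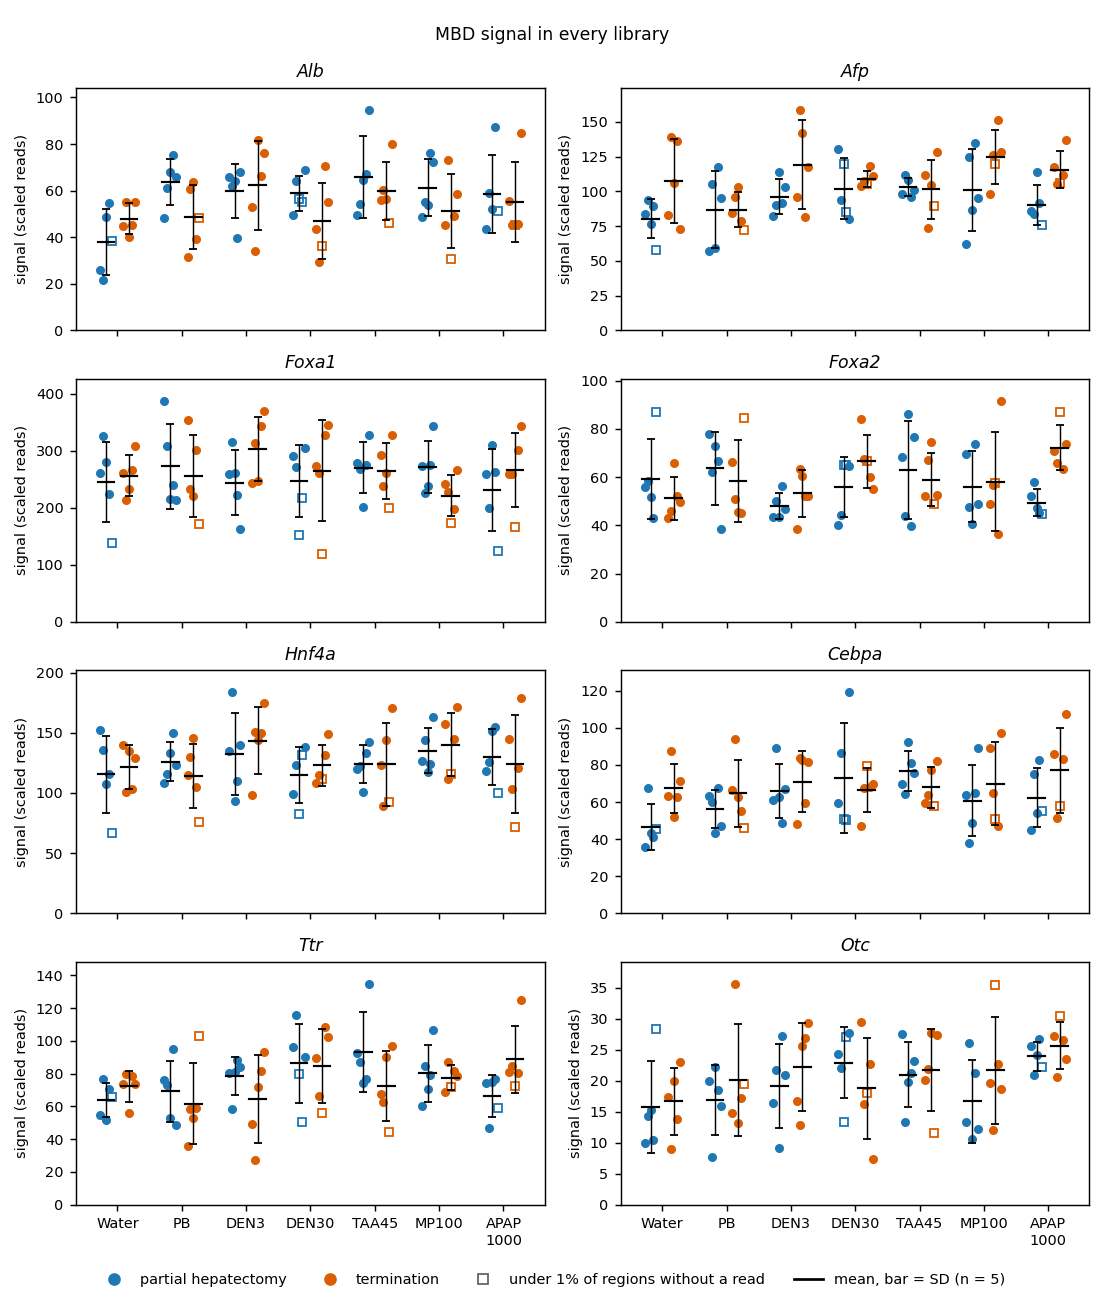
MBD signal (vertical axes, scaled reads) of each gene in all 70 libraries by condition, blue for partial hepatectomy and orange for termination, with the group mean and SD (n = 5) in black and open squares for evenly covered libraries. Alb in the blue water group (21.6 to 54.7) sits below most other groups, and the orange DEN 30 mg/kg and acetaminophen points of Afp (104 to 137) sit above those of phenobarbital (72.1 to 103).

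Afp, the fetal member, had the clearest difference between the times. Over the 35 libraries of each time its signal averaged 94.1 ± 19.6 at partial hepatectomy and 109 ± 22.4 at termination, and the mean log2 difference over the 7 conditions was 0.21 (SE 0.07, interval 0.07 to 0.36, unadjusted limma p of 0.00389, adjusted p of 0.428). The group mean was higher at termination in 5 of 7 conditions and in 4 of 4 blocks of library numbers, by 6.18 to 33.3. The largest rise, 33.3, was in the fourth block, whose signal may be off by a constant factor. Without that block the unadjusted limma p for Afp was 0.0328. In the comparison over all libraries 6.59% of regions had an unadjusted p under 0.05 and 0.0671% passed the adjusted threshold. Regions in general were slightly higher at termination (70.4% of them, with a median of 0.05).

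The other members moved less between the times: Alb by -0.12, Cebpa by 0.15, Foxa2 by 0.09, Otc by 0.10, Ttr by -0.06, Foxa1 by 0.04 and Hnf4a by 0.01, with SE of 0.07 to 0.13 and unadjusted p of 0.0822 or more. Thus 6 of 8 members were higher at termination, with a median of 0.06.

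The Afp differences from the phenobarbital control at termination were taken against a control group whose mean was 86.9 at both times. The phenobarbital libraries had 84.3, 96.3, 103, 78.4 and 72.1. DEN at 30 mg/kg had 104, 108, 105, 118 and 111, and acetaminophen 118, 105, 106, 112 and 137. Both groups lay wholly above phenobarbital, an arrangement found in 0.306% and 0.319% of regions in these contrasts. Methapyrilene (97.9, 126, 120, 151 and 128) and DEN at 3 mg/kg (95.8, 159, 142, 81.8 and 117) overlapped the control at their low ends.

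The log2 differences of Afp from phenobarbital at termination were 0.51 for methapyrilene, 0.42 for DEN 3 mg/kg, 0.41 for acetaminophen, 0.34 for DEN 30 mg/kg and 0.21 for thioacetamide, each with an SE of 0.19. In that order the unadjusted limma p was 0.010, 0.0332, 0.0365, 0.0884 and 0.289, and the two-sided exact permutation p of 5 against 5 libraries was 0.0159, 0.0873, 0.00794, 0.00794 and 0.222. The limma p adjusted over all regions lay between 0.579 and 1.00. These contrasts share the 5 phenobarbital libraries, so the values are not independent of each other. Water, which had no phenobarbital, was also above the phenobarbital control (107 ± 30.3 against 86.9 ± 12.8), with a difference of phenobarbital minus water of -0.27 (interval -0.66 to 0.12). An unadjusted p under 0.05 was found in 2.57%, 8.51%, 2.76% and 3.41% of regions for methapyrilene, DEN 3 mg/kg, acetaminophen and DEN 30 mg/kg. With each library scaled to an equal sum over the regions, the DEN 3 mg/kg value was 0.25 (unadjusted limma p of 0.136), and leaving out DEN 3 mg/kg replicate 2 raised its p to 0.135. For acetaminophen the unadjusted p was over 0.05 under 5 of 9 other settings (0.0736 without the evenly covered libraries, 0.0817 without the fourth block) and in 5 of 35 fits that left out 1 library. The highest of these were 0.0888 without phenobarbital replicate 5, an evenly covered library and the lowest of its group, and 0.0865 without acetaminophen replicate 5. The methapyrilene p stayed at 0.0370 or less in all these fits. Between the DEN doses Afp differed by 0.06 at partial hepatectomy and -0.09 at termination, both within an SE of 0.19.

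At partial hepatectomy the same 5 differences of Afp were 0.10 to 0.30 with unadjusted p of 0.127 or more, and none of their changes between the times had an unadjusted p under 0.05. The authors' deposited table gives p-values against the phenobarbital group, unadjusted over regions. For Afp at termination the authors' deposited table has 0.00773 for acetaminophen, 0.00819 for methapyrilene, 0.0137 for DEN 30 mg/kg and 0.0870 for DEN 3 mg/kg. For Alb in water at partial hepatectomy the authors' deposited table has 0.0123. Its other member values under 0.05 at partial hepatectomy were 0.0163 for Cebpa under thioacetamide and 0.0458 for Otc under acetaminophen. At termination Ttr had 0.0201 under methapyrilene, 0.0213 under acetaminophen and 0.0480 after DEN 30 mg/kg. Foxa2 had 0.00647 under acetaminophen and 0.0439 after DEN 30 mg/kg at that time. On the libraries used here the exact permutation p of the Foxa2 differences was 0.119 for acetaminophen and 0.317 for DEN 30 mg/kg. For Ttr at termination it was 0.159 under methapyrilene, 0.0714 under acetaminophen and 0.143 after DEN 30 mg/kg.

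**Figure D4:**
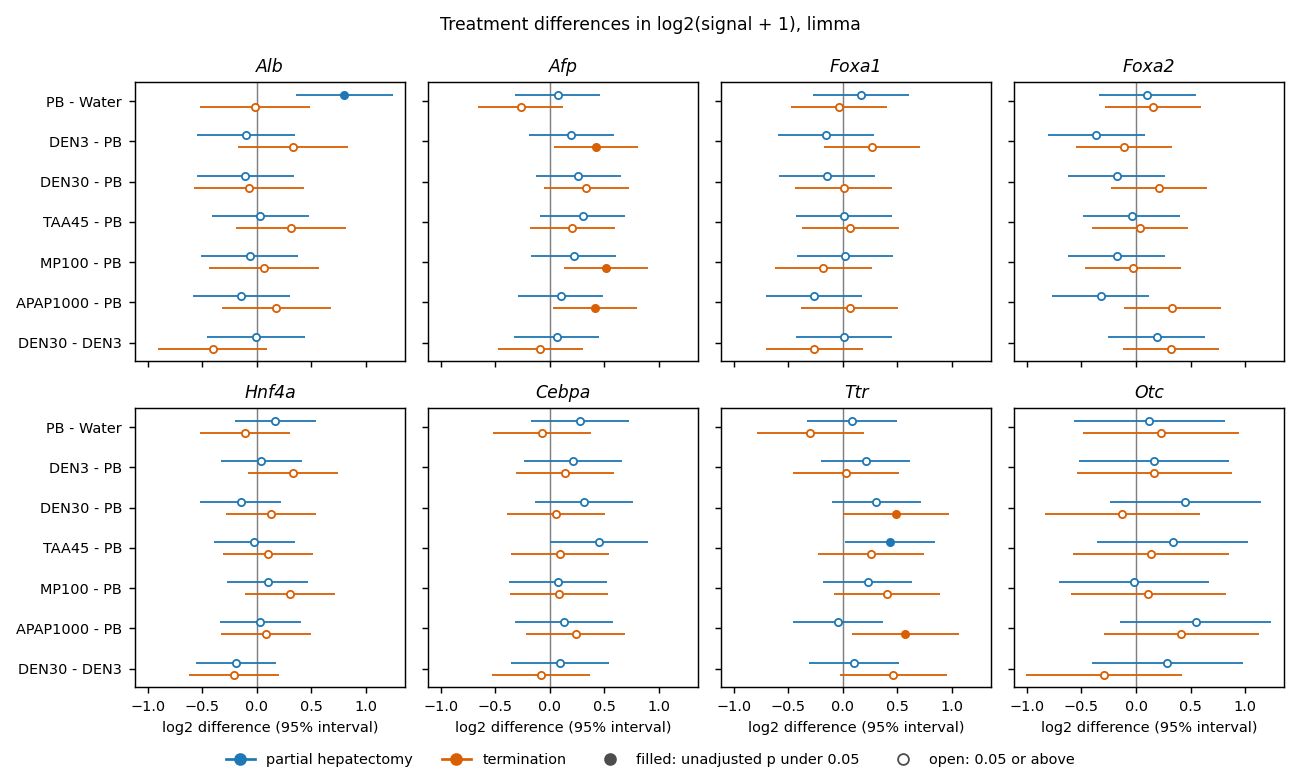
Log2 differences (horizontal axes) with 95% intervals for 7 contrasts (rows) in each gene, blue for partial hepatectomy and orange for termination, filled where the unadjusted limma p was under 0.05. Filled points are 1 for Alb (0.80), 3 for Afp (0.41 to 0.51) and 3 for Ttr (0.43 to 0.57), and the intervals of all open points include 0.

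Ttr had 3 differences with an unadjusted p under 0.05. At termination it was 35.7, 58.2, 52.7, 58.8 and 103 in phenobarbital, 80.8, 84.7, 72.5, 80.6 and 125 in acetaminophen and 89.6, 66.3, 56.2, 109 and 103 in DEN 30 mg/kg. Phenobarbital replicate 5, an evenly covered library, was far above the other 4 and made the only overlap with acetaminophen. DEN 30 mg/kg overlapped the other 4 as well, through its library at 56.2. The differences were 0.57 for acetaminophen (SE 0.24, unadjusted limma p of 0.0220) and 0.49 for DEN 30 mg/kg (SE 0.24, p of 0.0492), with an adjusted p of 0.999 for both. Their two-sided exact permutation p was 0.0714 and 0.143. Without the 9 evenly covered libraries they were 0.84 and 0.83 (unadjusted limma p of 0.00139 and 0.00164), with adjusted p of 0.991 and 0.960; after quantile normalization they were 0.38 and 0.29 with p of 0.114 and 0.236. Without phenobarbital replicate 1, the lowest of its group, they were 0.40 and 0.32 (p of 0.118 and 0.214), and the DEN 30 mg/kg p was over 0.05 in 22 of 35 fits that left out 1 library. Within the third block of library numbers the direction was the opposite, 76.5 and 82.4 against 103.

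At partial hepatectomy Ttr was 92.7, 87.0, 74.3, 76.5 and 135 under thioacetamide and 75.8, 73.3, 53, 94.9 and 48.9 under phenobarbital. The ranges overlapped, and the difference was 0.43 (SE 0.21, unadjusted limma p of 0.0408, adjusted p of 1.00, exact permutation p of 0.135), where 4.44% of regions had a p under 0.05. Without thioacetamide replicate 5 (135) it was 0.29 (unadjusted limma p of 0.180).

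Among the transcription factors no treatment difference reached an unadjusted p of 0.05. The 14 log2 differences ranged from -0.27 to 0.27 for Foxa1, from -0.37 to 0.33 for Foxa2, from -0.21 to 0.34 for Hnf4a and from -0.08 to 0.45 for Cebpa. The 95% intervals of the 14 differences of Foxa1 reached down to -0.71 and up to 0.71.

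The nearest to the threshold was Cebpa under thioacetamide at partial hepatectomy. It was 69.5, 64.5, 92.2, 81.1 and 75.8 there against 63.2, 60, 43.4, 67.6 and 47 under phenobarbital, higher in 24 of 25 pairs, with a difference of 0.45 (SE 0.22, interval -0.00 to 0.90, unadjusted limma p of 0.0505, adjusted p of 1.00, exact permutation p of 0.0159). At termination the same difference was 0.09.

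Foxa2 under acetaminophen changed sides between the times. At partial hepatectomy it was 52.3, 58.1, 47.2, 45.4 and 44.6 under acetaminophen and 77.9, 62.2, 73.1, 66.5 and 38.6 under phenobarbital, a difference of -0.32 (SE 0.22). At termination it was 71.1, 66, 87.2, 63.5 and 73.7 against 66.4, 51.1, 45.6, 45.0 and 84.7, a difference of 0.33 (SE 0.22). The change between the times was 0.66 (SE 0.31, interval 0.05 to 1.27, unadjusted limma p of 0.0344, adjusted p of 0.980), in a test where 3.26% of regions fell under 0.05. With equal sums over the regions it was 0.49 with an unadjusted p of 0.142. The 2 extreme phenobarbital libraries, 38.6 and 84.7, are both replicate 5, and Foxa2 ran high in evenly covered libraries, of which the second is one. The highest acetaminophen library at termination (87.2) and the lowest at partial hepatectomy (44.6) were evenly covered as well.

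Otc, with 7 to 37 reads per library, was the least precisely measured. Its largest difference was 0.55 for acetaminophen at partial hepatectomy (interval -0.14 to 1.24, unadjusted limma p of 0.119, exact permutation p of 0.0159), where the acetaminophen libraries were tight (25.7, 20.9, 24.1, 26.7 and 22.3) and the phenobarbital ones spread (20, 7.78, 22.3, 18.5 and 16). It was the higher in 24 of 25 pairs. Acetaminophen had the highest Otc mean at either time, 23.9 ± 2.36 and 25.7 ± 3.73. All 8 members were above the phenobarbital control under acetaminophen at termination, with a median of 0.28, where 70.2% of regions were higher with a median of 0.11; under thioacetamide at termination all 8 were higher as well, with a median of 0.12 where 56.6% of regions were. Of the markers of other cells, 5 of 5 macrophage regions were higher in both contrasts (medians of 0.22 and 0.19). Under acetaminophen 4 of 9 lymphocyte, 3 of 5 stellate, 2 of 3 biliary and 1 of 3 endothelial regions were higher, and under thioacetamide 8 of 9, 0 of 5, 1 of 3 and 1 of 3. The summed macrophage signal was 316 to 550 in phenobarbital, 419 to 557 in acetaminophen and 400 to 695 in thioacetamide libraries, and its part in the members' shift was not tested. Here too a higher MBD signal of RNA markers does not measure a larger share of those cells.

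The authors' peak list, which compares DEN 30 mg/kg with phenobarbital, named 1 member among its 36231 peaks. It lay at the start of Afp, 19110602 to 19110846 on chromosome 14 (244 bp), 4 bp from the transcript start by the list's own distance and across the first exon and intron, and it was recorded as more methylated after DEN at the time the list calls 5w. The list counts 20 reads for DEN and 0 for phenobarbital. Of the 28422 peaks in that direction and time, 2492 (8.77%) had 0 reads on the other side, and the median higher count was 19, so a peak of this size was ordinary in the list. Over the whole Afp window the recovered reads summed to 500 in DEN 30 mg/kg and 414 in phenobarbital at partial hepatectomy, and the window's difference was 0.26 (interval -0.13 to 0.65, unadjusted limma p of 0.184). No other member window had a peak over it, while 7.01% of all windows did. The nearest peaks were 1.65 kb from the Cebpa window (15 reads for DEN and 1 for phenobarbital, 5w) and 13.3 kb from that of Alb (20 for phenobarbital and 3 for DEN, 5w).

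The lists of other liver genes held no called difference either. Of at most 17 tested regions of other liver-enriched transcription factors, 22 of other secreted liver proteins, 19 of other hepatocyte enzymes and 12 of other fetal and oncofetal genes, 0 were called in either direction in the 14 contrasts or the comparison of the times. The smallest unadjusted p of the transcription factors was for Nr1h4, the bile acid receptor FXR, under methapyrilene at termination (99.6 ± 11.5 against 63.6 ± 9.28 in phenobarbital, n = 5 each; 0.64, SE 0.20, limma p of 0.00242, adjusted p of 1.00). Among secreted proteins it was for Apoa2, an apolipoprotein of high-density lipoprotein, after DEN 30 mg/kg at partial hepatectomy (55.7 ± 13.1 against 31.8 ± 7.22; 0.79, SE 0.26, limma p of 0.00340, adjusted p of 0.523). Among enzymes it was for Nags, which makes the activator of the urea cycle, under thioacetamide at partial hepatectomy (50.5 ± 17.9 against 25.9 ± 7.80; 0.93, SE 0.30, limma p of 0.00294, adjusted p of 0.968).

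Of the 12 tested regions of the fetal and oncofetal list, 10 were higher at termination, where 70.4% of all regions were, and 5 had an unadjusted p under 0.05, where 6.59% of all did. None passed adjustment. The median log2 difference was 0.34 against 0.05 over all regions, and 0.21 for Afp. Against phenobarbital at termination the list lay on the other side from Afp: 2 of 12 regions were higher with DEN 3 mg/kg (median -0.56), 3 with DEN 30 mg/kg (-0.36), 1 with thioacetamide (-0.30), 4 with methapyrilene (-0.31) and 4 with acetaminophen (-0.29), while 9 were higher in phenobarbital than in water (0.40). Over all regions 60.1%, 61.4%, 56.6%, 67.2% and 70.2% were higher with these initiators in the same order. The medians were 0.09, 0.07, 0.04, 0.09 and 0.11. In phenobarbital 50.0% of all regions were higher than in water. These contrasts share the phenobarbital libraries, of which replicate 5 was evenly covered, while no water or DEN 3 mg/kg library at termination was. Each other initiator group at termination held an evenly covered library too. At partial hepatectomy, where water replicate 5 was evenly covered and no phenobarbital library was, the phenobarbital minus water median was -0.38. The list's regions had a median signal of 14.9, against 52.5 over all regions. The part of coverage in these medians was not tested. The regions with the smallest p were those of Igf2bp1, an RNA-binding protein of fetal tissue (3.16 ± 3.65 at partial hepatectomy and 7.69 ± 7.96 at termination, n = 35 each, unadjusted limma p of 0.000947, adjusted p of 0.239), Dlk1, a surface protein of fetal hepatoblasts (42.9 ± 15.8 and 52.6 ± 15.9, limma p of 0.00401, adjusted p of 0.428), and Pkm2, the pyruvate kinase gene (14.6 ± 8.32 and 20.7 ± 9.94, limma p of 0.00459, adjusted p of 0.436). The 12 regions belong to 9 genes, and regions of 1 gene share reads where they overlap. Igf2bp1 was measured by few reads.

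Most pairs of members had low correlations across libraries. After taking the library median from each value, the 28 pairwise Pearson correlations over 70 libraries ranged from -0.32 (Foxa2 with Hnf4a) to 0.42 (Foxa1 with Hnf4a), with a median of 0.07. Alb with Ttr came second at 0.34, and the neighbours Alb and Afp had 0.04. Libraries share depth and coverage, so these values are a description. The regions most like a member lay on other chromosomes than the member, apart from Rc3h2, which is on chromosome 3 like Foxa2. They were LOC500797 on chromosome 7 (0.85), Rhox9 on X (0.85) and Rdbp on 20 (0.83) for Foxa1, Cd27, Drd1a and Sytl3 for Hnf4a (0.66 to 0.67) and Gpr37, Sike and Mir383 for Alb (0.56 to 0.59). Mpeg1, Rxra and Lrrc69 came closest to Afp (0.43 to 0.48), Rc3h2, Lilra5 and Twist1 to Foxa2 (0.44 to 0.49) and Crip2, Mcf2l and Polr2e to Cebpa (0.46 to 0.51). Trim23, Gpatch1 and Inhbc came closest to Ttr (0.45 to 0.50) and Ern2, Plaa and Zfp110 to Otc (0.43 to 0.45).

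The libraries of the 2 times carry the same replicate numbers, and a deviation at the first time was compared with that of the same number and condition at the second, over 35 pairs. Pearson's r was 0.20 for Afp (Spearman's rho 0.13), 0.28 for Cebpa (0.27), 0.08 for Foxa1 (0.08), 0.07 for Ttr (0.10), -0.01 for Alb (-0.01), -0.08 for Hnf4a (-0.03), -0.25 for Otc (-0.12) and -0.35 for Foxa2 (-0.39). Of these 8 relations none had a permutation p under 0.05 for r (two-sided, smallest 0.0760 for Foxa2), and 1 had for rho (Foxa2, 0.0428). Over the 16385 tested regions the median r was 0.10. Within blocks of 10 pairs the sign of r held for Afp (0.10, 0.24 and 0.53) and Foxa2 (-0.22, -0.62 and -0.28) and changed for the other 6 members.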

How the data were processed

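MBD-enriched DNA (MethylMiner kit) was read on a SOLiD 4 sequencer, per the labels' protocols; no source used here gives the aligner, the genome build or the peak caller. The authors deposited 1 signal per region and library, a read number scaled to 50 M over a library total, with 0.01 for a region without a read. Dividing by each library's step gave whole reads within 0.01 for 100% of the values. Per the file headers, the deposited p-values came from a t-test against the phenobarbital group. For Foxa2 under acetaminophen at termination the deposited t-test p was 0.00647, and the exact permutation p here was 0.119. Whether the deposited test at termination used the same 5 phenobarbital libraries as here was not tested. The peak list gives read counts for both sets and an enrichment ratio of the authors, and the ratio was not used; its 5w and 11w were read as partial hepatectomy and termination, although the second region table says 10W.

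Signal was analysed as log2(value + 1) for regions with 10 or more in at least 5 libraries (15809 at partial hepatectomy, 16008 at termination, 16385 for both), a scale that understates changes of low regions. A mean for each group, with a variance trend, was fitted in limma 3.58.1 (R 4.3.3); 7 contrasts and an F test over 6 coefficients were made at each time, and the times were compared as the mean over 7 conditions. p-values were adjusted over all tested regions and held to 0.05. The recovered reads served only to state depth and counting error. The fit was tested on simulated data. The relation of the times used 100000 permutations within conditions (scipy and numpy). The p-values measure the spread between libraries.

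Every member was named, with statistics where the unadjusted limma p was under 0.05 and otherwise as ranges, apart from values singled out after they were seen: Cebpa under thioacetamide, Otc under acetaminophen, both Foxa2 differences under acetaminophen, and the remaining Afp and Alb differences set beside those under 0.05. The exact permutation values set beside the authors' p-values were also singled out after those were seen. Up to 3 genes of each other list with the smallest p, the 3 most correlated regions of each member and every peak with a member symbol could be named. The members and lists were chosen with earlier results of these data known. Symbols were matched to RefSeq promoters for 7 of 8 genes.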

Additional observations from a re-analysis of the deposited data

Results flagged for a closer look

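In 7 of the 112 sets of 5 libraries (8 genes in 14 groups), 1 library stood apart from the other 4 by Dixon's test; about 5.6 such sets arise by chance at 1 in 20. Both Alb (84.9, others 45.2 to 55.5) and Ttr (125, others 72.5 to 84.7) were high in acetaminophen replicate 5 at termination, a library of the fourth block of library numbers. Alb was low in DEN 3 mg/kg replicate 4 at partial hepatectomy (39.5, others 61.9 to 68). Ttr was low in DEN 3 mg/kg replicate 2 at partial hepatectomy (58.6, others 80.5 to 88.5) and in water replicate 3 at termination (56.1, others 73.5 to 79.7). Otc was high in phenobarbital replicate 2 at termination (35.7, others 13.2 to 19.5) and in water replicate 5 at partial hepatectomy (28.3, others 9.999 to 15.3), the latter an evenly covered library.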

How the results depend on the processing

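The count of members past the threshold was 0 in the treatment contrasts, the F test, the comparison of the times and the change of a treatment difference between the times under every alternative run: another pseudocount, no filter, quantile normalization, equal sums, the replicate block, library-number blocks as a covariate, without the evenly covered libraries, without the fourth block (chosen after seeing the data), only the 2 groups of a contrast (treatment contrasts alone), and leaving out each library in turn (lowest 0, highest 0). The smallest adjusted p of a member over these alternatives was 0.244, for Afp between the times. Of the 112 member differences 7 had an unadjusted p under 0.05 in limma, 3 after quantile normalization, 4 with equal sums and 12 without the evenly covered libraries. No named treatment difference changed sign under these alternatives. The planned count tests (edgeR with 2 scalings and DESeq2) were tried on the recovered reads and are not reported, because a formal test of the deposited columns for whole reads fails on the 0.01 that stands for a region without a read.

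With a replicate block the counts were again 0. Same-numbered libraries of the 2 times had correlations of -0.38 to 0.68 over regions, with a median of 0.08 against -0.01 for different numbers. Of the 35 pairs 11 were above 0.1. For 21 of 35 partial hepatectomy libraries, the closest of the 5 termination libraries of the condition carried the same number. This is a hint from the data of some shared deviation. Both libraries of a same-numbered pair lay in the same block of library numbers, so number and block cannot be told apart in it. Within a time, same numbers of different conditions had a median of 0.02, above 0.1 in 49 of 210 pairs. Pairing would have needed every pair above 0.1, and the labels give no shared animal, so the numbers were not taken to pair the samples.

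The correlation of the times changed sign, between values near 0, for Alb with a pseudocount of 10 (0.00151) and without the 2 pairs farthest from the median (0.0662), for Ttr after quantile normalization (-0.0245) and for Hnf4a without pairs holding an evenly covered library (0.0580); without the 2 farthest pairs Foxa2 had -0.34. The cause was not tested. Depth and replication limit all of this: with 5 libraries per group the half-width of the 95% interval of a member's log2 difference was 0.37 to 0.71.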
